A study of Drosophila simulans and Drosophila sechellia and Drosophila simulans x Drosophila sechellia with 72 samples.

Results

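Muscle shortens when myosin motors of the thick filament pull on actin in the thin filament, and calcium starts the process by binding troponin C on the thin filament. Insects use several kinds of muscle. Larvae move with a body wall musculature that is largely broken down in the pupa, and the adult builds new muscle, most of it the indirect flight muscle of the thorax, which contracts again when it is stretched. The 5 genes described here are Mhc, Mlc2, TpnC4, TpnC41C and fln, chosen by name as the contractile genes of interest from a table of 7836 genes. The choice was made with earlier results of these data known, so ranks and shares of called members are descriptions only. In Drosophila melanogaster, Mhc encodes the muscle myosin heavy chain, Mlc2 the regulatory light chain of muscle myosin, TpnC4 the troponin C isoform of stretch-activated flight muscle, TpnC41C another troponin C isoform of adult muscle, and fln flightin, a myosin-binding protein of flight muscle thick filaments. All 5 names were present in the table.

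The libraries came from Drosophila simulans, Drosophila sechellia and the hybrids of both, as adults and as third-instar larvae. Octanoic acid, the main toxic compound of the noni fruit on which D. sechellia feeds, was given or withheld in the previous and in the current generation. A 2-letter code gives the medium of the parents and then that of the sampled animals, where S is standard and O holds octanoic acid (SS, SO, OS and OO). Each of the 24 groups had 3 replicates, giving 72 libraries, and each library was made from polyA RNA of 10 pooled whole animals, either adult females or larvae that the labels call female. Rearing was at 20 °C on a cycle of 16 h light and 8 h dark. The sources used here do not name strains, adult age or the direction of the hybrid cross. In pooled whole animals a smaller mass of muscle and less RNA per muscle cell cannot be told apart.

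Values are FPKM (fragments per length of transcript, relative to all fragments mapped), so levels of different genes can be set side by side. A hybrid library is the sum of its D. simulans and D. sechellia allele columns. Read depth is unknown. Column totals of adult D. simulans were 483241 to 515024 FPKM, and those of adult D. sechellia 1090157 to 1454241 FPKM. Larval totals were 442983 to 543443 FPKM for D. simulans and 1137758 to 1515240 FPKM for D. sechellia. The 4 measured egg and ovary markers summed to 6359 to 35645 FPKM in adult libraries and to at most 33.51 FPKM in larval ones. The 2 measured testis markers summed to 5.509 to 277.5 FPKM in larvae and to at most 0.4099 FPKM in adults. The larval fat body and cuticle markers, 5 measured of 10, summed to 11392 to 71423 FPKM in larvae. In adults they summed to 1.301 to 85.49 FPKM in D. simulans, 5.288 to 159.7 FPKM in hybrids and 183.9 to 1776 FPKM in D. sechellia.

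TpnC4, TpnC41C and fln were adult genes in both species and in the hybrids, at 318 FPKM or more in every adult library and at or near 0 in every larval one. Adult D. simulans had TpnC4 levels from 905.6 to 1854 FPKM with a median of 1324, and adult D. sechellia from 3783 to 13790 FPKM with a median of 6722. The larvae of both species together reached at most 6.499 FPKM, with 9 of 12 D. simulans and 3 of 12 D. sechellia libraries listed at 0. No adult library came near a larval one: the lowest adult value was 139-fold above the highest larval value in D. simulans and 1755-fold in D. sechellia.

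For TpnC41C, adult levels ran from 686.9 to 1253 FPKM in D. simulans (median 800.1) and from 3130 to 12198 FPKM in D. sechellia (median 6079). Larvae reached 4.739 and 2.699 FPKM, with 3 and 5 of 12 libraries listed at 0. The flightin gene fln ran from 855.3 to 1490 FPKM in adult D. simulans (median 1061) and from 1439 to 8299 FPKM in adult D. sechellia (median 3810). Larval fln reached 3.692 and 0.9644 FPKM, and 5 and 9 of 12 libraries were listed at 0. The adult and larval ranges of these genes were thus separated by a wide gap in both species. In hybrids, TpnC4 ran from 332.1 to 981.4 FPKM, TpnC41C from 318 to 712 FPKM and fln from 521.8 to 1926 FPKM in adults. All 12 hybrid larval libraries listed TpnC4 and fln at 0 and 10 listed TpnC41C at 0.

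**Figure D1:**
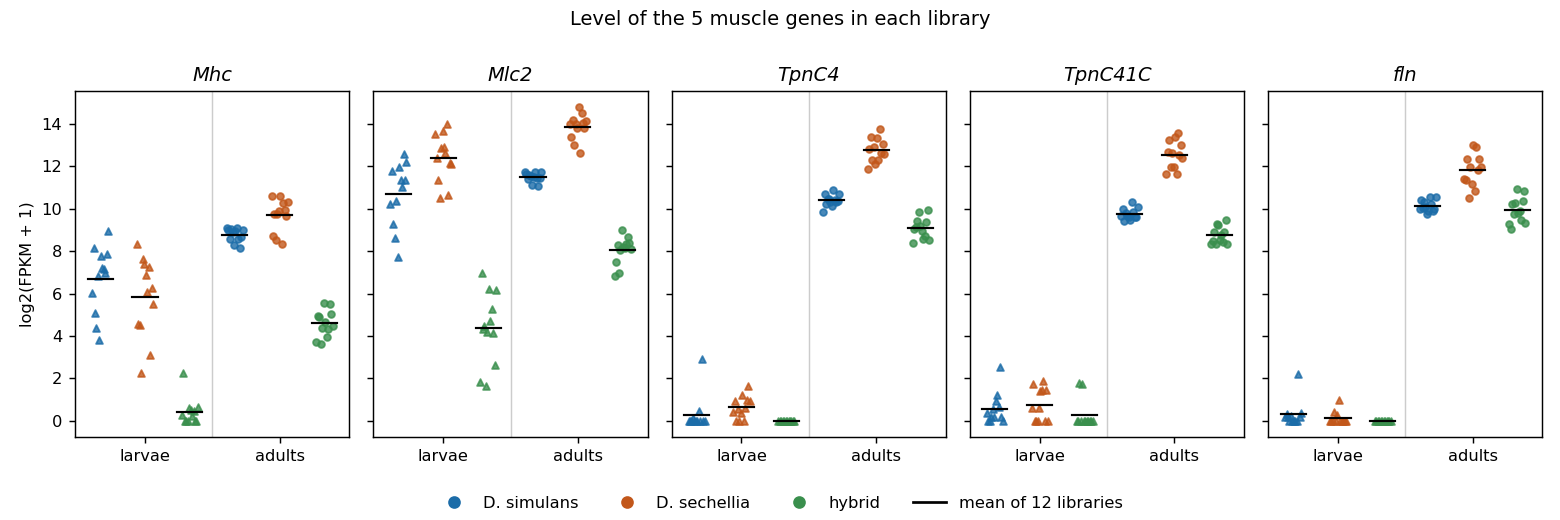
Level of each gene, as log2(FPKM + 1), in every library, with larvae (triangles) to the left and adults (circles) to the right of the grey line, coloured by genotype, and the mean of the 12 libraries of each stage and genotype as a black line. TpnC4, TpnC41C and fln sit near 0 in larvae and between 318 and 13790 FPKM in adults, Mhc and Mlc2 are present in the larvae of both species, and hybrids lie low for Mhc and Mlc2 at both stages.

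Mhc and Mlc2, which serve body wall as well as adult muscle, were present at both stages in the parental species. Mhc ran from 282.3 to 538.6 FPKM in adult D. simulans (median 489.3) and from 322.7 to 1546 FPKM in adult D. sechellia (median 899.3). Larval Mhc ran from 12.85 to 495.2 FPKM in D. simulans (median 133.8) and from 3.777 to 322.5 FPKM in D. sechellia (median 71.49). The ranges overlapped in D. simulans, where 7 of 12 adult libraries lay below the highest larval one, and just touched in D. sechellia, where the lowest adult stood 1.001-fold above the highest larva.

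Mlc2 was the highest of the 5 genes in every parental library. Adult Mlc2 ran from 2142 to 3439 FPKM in D. simulans (median 2925) and from 6373 to 28253 FPKM in D. sechellia (median 16300). Larval Mlc2 ran from 213 to 6153 FPKM in D. simulans (median 2340) and from 1428 to 16388 FPKM in D. sechellia (median 5762). The stages overlapped in both species, and in D. simulans all 12 adult libraries lay below the highest larval one.

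All 5 genes were called higher in adults than in larvae over both species, in a comparison where 85.4% of all genes tested were called in either direction. With limma on log2(FPKM + 1), the difference of adults minus larvae was 11.11 for TpnC4 (SE 0.16, adjusted p = 5.72e-37), 10.74 for fln (SE 0.15, adjusted p = 6.23e-38) and 10.48 for TpnC41C (SE 0.17, adjusted p = 2e-35). These ranked 8, 9 and 11 by size among the 7361 genes tested, a description of genes chosen with earlier results known. Their sizes and ranks depend on the pseudocount, since larvae of both species were at or near 0 for these genes. Mhc was higher by 2.98 (SE 0.35, adjusted p = 1.15e-09) and Mlc2 by 1.13 (SE 0.23, adjusted p = 3.52e-05). The median over all genes tested was 0.09, and -0.16 when libraries were rescaled by their median ratio.

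Each species and the hybrids gave the same calls when taken alone. In D. simulans, where 78.1% of genes were called, the differences were 10.10 for TpnC4, 9.83 for fln, 9.19 for TpnC41C, 2.09 for Mhc and 0.79 for Mlc2. The Mlc2 difference was the least secure: its adjusted p was 0.0287 (SE 0.33), it stood at 0.57 with an adjusted p of 0.142 after median-ratio rescaling, and it missed the threshold without any 1 of 3 larval libraries (SS3, SO3 or OO2). In D. sechellia, with 80.9% of genes called, they were 12.11, 11.66, 11.78, 3.86 and 1.47 in the same order. Among hybrids, with 75.2% of genes called, they were 9.09, 9.93, 8.45, 4.17 and 3.64. The hybrid values depend on the pseudocount as well, since hybrid larvae were at or near 0 for 4 of the genes. With a pseudocount of 0.1 they were 12.41, 13.25, 11.29, 6.31 and 3.77 in the same order.

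The stage difference itself was larger in D. sechellia than in D. simulans for 4 of the 5 genes, where 52.7% of all genes had a called interaction of stage and species. The gap between the species was 2.59 for TpnC41C (SE 0.34, adjusted p = 9.72e-08), 2.01 for TpnC4 (SE 0.33, adjusted p = 3.56e-06), 1.84 for fln (SE 0.29, adjusted p = 2.85e-06) and 1.77 for Mhc (SE 0.71, adjusted p = 0.0346), on the log2(FPKM + 1) scale. Mlc2, at 0.68 (SE 0.46, adjusted p = 0.218), did not pass. For TpnC4, TpnC41C and fln, larvae of both species were at or near 0. Their interaction thus mostly restates the species difference of adults, which was 2.36, 2.79 and 1.67 in that order. The Mhc call was lost without any 1 of 10 libraries: adult D. sechellia SS1 or OS1, larval D. simulans SS2, SO2 or OO3, or larval D. sechellia SS2, SS3, SO1, OS2 or OO1. That of TpnC4 was 0.82 with an adjusted p of 0.323 when the pseudocount was 0.1.

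One larval library of D. simulans, OO1, stood apart from the other larvae of its species in the adult genes. It held the highest larval TpnC4 (6.499 FPKM), TpnC41C (4.739 FPKM) and fln (3.692 FPKM), which were 0.476%, 0.543% and 0.324% of the D. simulans adult means. Female reproductive genes were at their highest among D. simulans larvae in the same library. The yolk protein gene Yp1 stood at 16.59 FPKM, the vitelline membrane genes Vm26Aa and Vm26Ab at 7.039 and 2.404 FPKM and the chorion gene Cp36 at 7.472 FPKM, which were 0.358%, 0.258%, 0.224% and 0.333% of their adult means. The part of these other transcripts in the muscle gene values was not tested. Without this library, the stage difference in D. simulans was 10.34 for TpnC4, 9.39 for TpnC41C and 9.99 for fln, and the interaction with species was 1.77, 2.39 and 1.67, all still called.

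Of 77 other muscle genes listed in 7 groups, 30 were in the table. Adults were higher than larvae in 17 of them and lower in 5, where 45.4% of all genes tested were called higher and 40% lower. The median difference was 0.72 (log2) against 0.09 over all genes, and after rescaling 16 were higher and 9 lower. All 5 calcium handling genes were higher, among them the sodium and calcium exchanger Calx by 2.64 (SE 0.09, adjusted p = 2e-25), the calcium channel gene Ca-alpha1D by 2.41 and the ryanodine receptor RyR, which releases calcium from the sarcoplasmic reticulum, by 2.96. All 5 genes listed under flight muscle energy supply were higher, led by the glycerol phosphate oxidase Gpo-1 at 5.65 (SE 0.2, adjusted p = 9.37e-25). The others were Ald, Pgk, Eno and Tpi, which had larval means of 243.2 FPKM or more in both species. The only other thick filament gene measured, Unc-89, the obscurin of the M line, was higher by 3 (SE 0.2, adjusted p = 1.92e-16). Of the 4 other thin filament genes, 2 were higher, the troponin C gene TpnC25D by 2.67 and up, which encodes troponin T, by 1.02. The remaining groups were split. Of 4 Z disc genes, 1 was higher, Zasp52 by 1.78, and 2 were lower, the capping protein genes cpa and cpb at -0.65 and -0.76. Of 4 attachment genes, 1 was higher and 2 were lower, and of 7 muscle regulators, 2 were higher and 1 was lower. The 6 measured genes of the cytoplasmic actin and myosin machinery, which every cell uses, were all lower in adults, with a median of -1.43.

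On the deposited FPKM scale, adult D. sechellia had higher levels of all 5 genes than adult D. simulans. In this comparison 72.1% of the 6420 genes tested were called and 67.2% were called higher. As means of 12 libraries, Mlc2 stood at 15913 ± 6109 against 2914 ± 430 FPKM (SD), TpnC4 at 7414 ± 3007 against 1367 ± 262 FPKM, and TpnC41C at 6560 ± 2995 against 872 ± 165 FPKM. The ranges of these genes did not overlap between the species. The means of fln were 4068 ± 2177 against 1140 ± 218 FPKM and those of Mhc 925 ± 417 against 446 ± 90.3 FPKM, and for both genes the lowest D. sechellia libraries fell inside the D. simulans range.

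As ratios of the means, D. sechellia adults were 7.52-fold higher for TpnC41C, 5.46-fold for Mlc2, 5.42-fold for TpnC4, 3.57-fold for fln and 2.07-fold for Mhc. The log2 differences were 2.79 (SE 0.2, adjusted p = 5.38e-13), 2.36 (SE 0.22, adjusted p = 1.45e-10), 2.36 (SE 0.18, adjusted p = 3.15e-12), 1.67 (SE 0.23, adjusted p = 2.56e-07) and 0.91 (SE 0.26, adjusted p = 0.00254) in that order. The median over all genes was 0.72, so that Mhc was close to the shift of the whole table. Rescaling by the median ratio took the median of all genes to 0.07. It left 2 for TpnC41C, 1.56 for Mlc2, 1.56 for TpnC4 and 0.87 for fln, all still called, but 0.12 for Mhc with an adjusted p of 0.725. With every column scaled to the same total, the log2 ratio was 0.28 for fln and -0.47 for Mhc, so the direction for Mhc turned with the scaling.

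The spread from library to library was wider in adult D. sechellia, a difference that was not tested. The coefficient of variation of the 5 genes ran from 14.8% for Mlc2 to 20.3% for Mhc in adult D. simulans. In adult D. sechellia it ran from 38.4% for Mlc2 to 53.5% for fln. The larval fat body and cuticle markers were higher in adult D. sechellia as well, by the ranges given above, and over deviations from group means in the 36 adult libraries the larval serum protein gene Lsp1gamma had a Pearson r of 0.9 with fln, given as a description of libraries that share a pool of animals. The part of this in the species difference was not tested.

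Among the 30 other muscle genes, 26 were higher in adult D. sechellia and 0 were lower, with a median of 0.77 against 0.72 over all genes, and after rescaling 6 were higher and 3 lower. The troponin C genes TpnC25D and TpnC47D were higher by 2.53 and 1.58, and calmodulin, Cam, the ubiquitous calcium sensor related to troponin C, by 2.49 (SE 0.11, adjusted p = 3.57e-18). SERCA and RyR were higher by 0.98 and 1.12.

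In larvae the species difference was called for 1 of the 4 members tested, where 55.8% of 7167 genes were called. Mlc2 was higher in D. sechellia by 1.68 (SE 0.51, adjusted p = 0.00667), with means of 6850 ± 4704 against 2455 ± 1863 FPKM and ranges that overlapped. This call was lost after rescaling (1.05, adjusted p = 0.111). Mhc stood on the other side, at -0.86 (SE 0.55, adjusted p = 0.19), with means of 100 ± 96.0 in D. sechellia against 157 ± 137 FPKM in D. simulans, and after rescaling it was called at -1.48 (adjusted p = 0.024). TpnC4 at 0.35 (adjusted p = 0.184) and TpnC41C at 0.2 (adjusted p = 0.547) did not pass, and fln was too low to test. Of the 30 other muscle genes, 4 were higher and 9 lower in larval D. sechellia, where 49.4% of all genes tested were called higher and 6.36% lower, and after rescaling 2 were higher and 17 lower. Among the lower ones were Unc-89 at -1.2 (SE 0.3, adjusted p = 0.00102) and the Z disc gene Zasp52 at -1.56 (SE 0.27, adjusted p = 1.66e-05).

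Ratios of transcripts within a library set the genotypes apart in part. In a parental library they do not depend on how it was scaled. A hybrid library sums 2 allele columns of unlike totals, so its ratios depend on the scale of 1 column relative to the other. The ratio of Mlc2 to Mhc was 6.63 ± 0.569 (SD, n = 12) in adult D. simulans, with a range of 5.734 to 7.587, and 18.4 ± 3.91 in adult D. sechellia, with a range of 10.41 to 24.98. These ranges did not overlap, and the hybrids, at 5.986 to 19.04, spanned the gap. Larval ratios spanned 9.577 to 48.92 for D. simulans and 36.91 to 378 for D. sechellia. The ratio of TpnC4 to TpnC41C was 1.57 ± 0.165 in adult D. simulans, 1.17 ± 0.154 in adult D. sechellia and 1.31 ± 0.333 in adult hybrids, with ranges that overlapped.

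The order of levels also changed. It was Mlc2, TpnC4, fln, TpnC41C and Mhc from high to low in 11 of 12 adult D. simulans libraries, and Mlc2, TpnC4, TpnC41C, fln and Mhc in 11 of 12 adult D. sechellia libraries. In 9 of 12 adult hybrids it was fln, TpnC4, TpnC41C, Mlc2 and Mhc, with the allele columns summed as deposited. This hybrid order depends on the totals of those columns. With each column scaled to the same total, TpnC41C had a mean of 2820 in the D. simulans column and fln of 1148 in the D. sechellia column. In adult D. sechellia all neighbours in this order had overlapping ranges. In adult D. simulans the range of fln overlapped those of TpnC4 and TpnC41C. Mlc2, first in every parental library of either stage, was the fourth in every adult hybrid library on the deposited scale.

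Within a genotype, levels of several pairs of the genes were correlated from library to library, the myosin pair and the troponin C pair among them. Over the 12 adult libraries of D. simulans, Mhc and Mlc2 had a Pearson r of 0.96 and a Spearman rho of 0.95 on the log2 scale (permutation p = 2e-05 for each, the smallest the permutations can give, adjusted p = 0.00032 and 0.00064 over the 32 relations computed), and r was 0.87 without the 2 libraries farthest from the median. In adult D. sechellia r was 0.91 (adjusted p = 0.00071), rho 0.75 (adjusted p = 0.017) and r without the 2 libraries 0.77. The same pair had r of 0.93 and rho of 0.82 in D. simulans larvae (adjusted p = 0.00064 and 0.0068) and r of 0.92 and rho of 0.88 in D. sechellia larvae (adjusted p = 0.00064 and 0.0032), and r was 0.81 and 0.82 without the 2 farthest.

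TpnC4 and TpnC41C had r of 0.97 and rho of 0.95 in adult D. sechellia (permutation p = 2e-05 and 4e-05, adjusted p = 0.00032 and 0.00064) and r of 0.81 and rho of 0.78 in adult D. simulans (adjusted p = 0.003 and 0.012), with r of 0.96 and 0.93 without the 2 farthest. In adult hybrids the troponin C pair had r of 0.73 and rho of 0.68 (adjusted p = 0.019 and 0.033), which rested on the 2 farthest libraries (r of 0.43 without them). TpnC41C and fln had r of 0.89 in both species (adjusted p = 0.00071 for each), with rho of 0.79 and 0.86 (adjusted p = 0.011 and 0.004) and r of 0.79 and 0.84 without the 2 farthest. Mhc and TpnC4 had r of 0.23, 0.25 and 0.39 in D. simulans, D. sechellia and hybrid adults (adjusted p = 0.47, 0.45 and 0.24), with rho of 0.28, 0.06 and 0.4. Pairs across these sets were correlated too. Mlc2 and fln had r of 0.74, 0.88 and 0.67 in adult D. simulans, D. sechellia and hybrids (adjusted p = 0.0084, 0.00071 and 0.025), with rho of 0.69, 0.86 and 0.75 (adjusted p = 0.032, 0.004 and 0.017) and r of 0.62, 0.82 and 0.77 without the 2 farthest. Mlc2 and TpnC41C had r of 0.58, 0.71 and 0.63 in the same order (adjusted p = 0.048, 0.017 and 0.028), with rho of 0.69, 0.72 and 0.64 (adjusted p = 0.032, 0.022 and 0.04) and r of 0.71, 0.54 and 0.48 without the 2 farthest. Whether one pair was tighter than another was not tested. The genes of a library share its RNA pool and its scale.

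**Figure D2:**
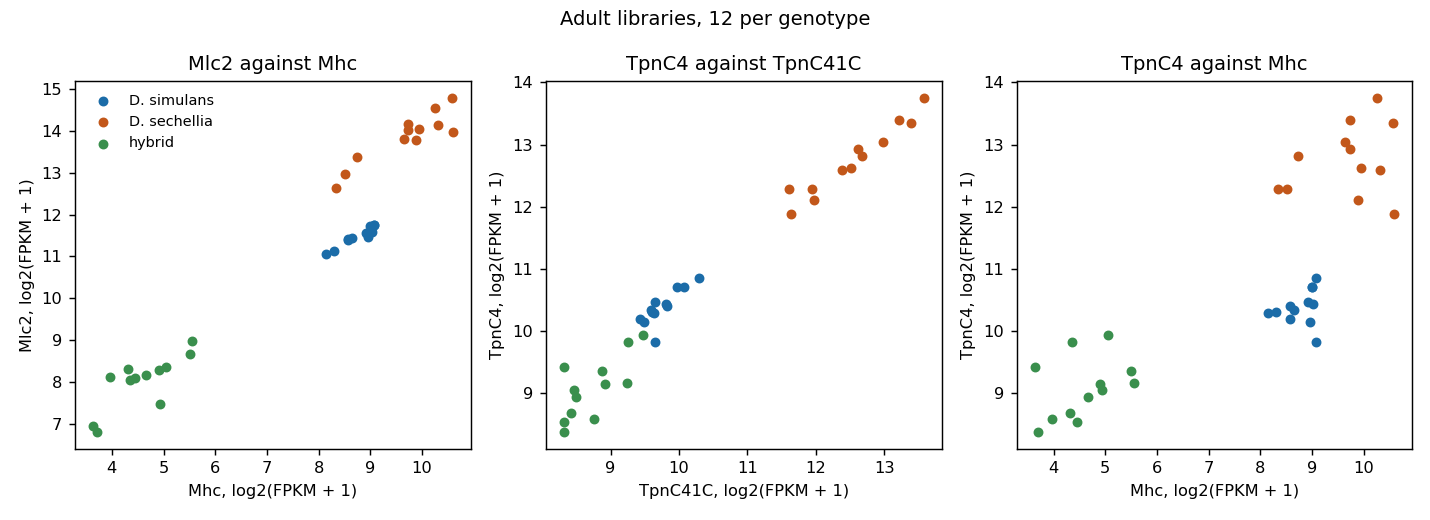
Levels of pairs of genes in the 36 adult libraries, as log2(FPKM + 1), with 1 point per library coloured by genotype. Mlc2 follows Mhc within each species (r of 0.96 in D. simulans and 0.91 in D. sechellia) and TpnC4 follows TpnC41C (0.81 and 0.97), while TpnC4 against Mhc shows r of 0.23 and 0.25.

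Genes of most similar pattern were ranked by Pearson r, as a description. Over the means of the 24 groups, the nearest genes to Mhc were the glycolytic genes Ald (r of 0.989), Eno (0.982) and Tpi (0.974), and the nearest to Mlc2 was Tpi (0.983). TpnC4 and TpnC41C were each other's nearest gene (0.998). The nearest to fln were CG15617 (0.999) and the yolk protein gene Yp1 (0.997). Over deviations from group means in the 36 adult libraries, Mhc was nearest to up (0.946), muc, a subunit gene of pyruvate dehydrogenase (0.945), Unc-89 (0.933) and RyR (0.932). TpnC41C was nearest to ND-B14.7 (0.925) and Cyt-c1 (0.92), and fln to Cyt-c1 (0.959) and levy (0.942), which belong to the respiratory chain. In larvae, Mhc was nearest to Unc-89 (0.897), Ald (0.895) and Mp20, a muscle protein gene (0.865).

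Hybrid adults had lower levels of all 5 genes than the mean of the parental species on the log2 scale, in a comparison where 77.6% of genes were called and 25.7% were called lower. The hybrid level is a sum of allele columns, and the part that the assignment of reads to alleles had in the low hybrid values was not tested. Hybrid Mhc ran from 11.44 to 46.11 FPKM (median 22.57) and hybrid Mlc2 from 111.4 to 506.8 FPKM (median 283). Every hybrid library lay below every parental library for these 2 genes, as was so for 4.95% of all genes tested. Hybrid TpnC4 and fln overlapped the D. simulans range, and hybrid TpnC41C reached 712 FPKM against a lowest D. simulans value of 686.9 FPKM.

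The difference from the parental mean was -4.64 for Mhc (SE 0.22, adjusted p = 3.2e-17) and -4.64 for Mlc2 (SE 0.19, adjusted p = 6.46e-19). It was -2.48 for TpnC4 (SE 0.16, adjusted p = 1.94e-14), -2.4 for TpnC41C (SE 0.17, adjusted p = 2.92e-13) and -1.04 for fln (SE 0.2, adjusted p = 2.8e-05), against a median of 0.46 over all genes. Rescaling moved that median to -0.18 and the members to between -5.47 and -1.87. Of the 381 genes with a parental mean of at least 300 FPKM, 26% had all hybrid libraries below all parental ones and 7.61% lay below -4.

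Hybrid larvae were lower still for the myosin genes. Mhc was listed at 0 in 5 of 12 hybrid larval libraries and reached 3.838 FPKM, and Mlc2 ran from 2.133 to 126.2 FPKM with a median of 20.21. All Mlc2 values lay below those of both species, as was so for 5.82% of genes, and the highest Mhc value lay just above the lowest of D. sechellia. Of the 377 genes with a larval parental mean of at least 300 FPKM, 22% had all hybrid libraries below all parental ones. A log2 difference below -4 was seen for 11.1% of them. With 67.2% of genes called, Mlc2 was called lower at -7.16 (SE 0.45, adjusted p = 2.12e-14) and Mhc at -5.83 (SE 0.48, adjusted p = 9.1e-12). TpnC4 was also called, at -0.47 (SE 0.19, adjusted p = 0.0335), but it reached 1 FPKM in only 3 larval libraries, D. simulans OO1 at 6.499, D. sechellia OS1 at 1.357 and D. sechellia OO2 at 2.155 FPKM. Without any 1 of these it was too low to test and 2 members were called, and after rescaling it stood at -0.46 with an adjusted p of 0.0788, so nothing is read from its call. TpnC41C, at -0.37 (SE 0.24, adjusted p = 0.166), did not pass. Mlc2 ranked 15 and Mhc 32 by size among the 7167 genes tested, as a description. The size for Mhc is bounded by the pseudocount, since hybrid larvae were at or near 0. As ratios of means, hybrid larvae were 252.2-fold below the parental mean for Mhc and 133.7-fold for Mlc2.

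Of the 30 other muscle genes, 9 were higher and 16 lower in hybrid adults, where 51.8% of all genes tested were called higher and 25.7% lower, and after rescaling 5 were higher and 21 lower. In hybrid larvae 3 were higher and 17 lower, against 29% and 38.2% of all genes, and 3 and 20 after rescaling. SERCA was lower by -3.43 in adults (SE 0.17, adjusted p = 1.09e-16) and -2.88 in larvae, Cam by -2.78 and -3.42, and Ald by -3.34 and -3.68. The troponin C genes TpnC25D and TpnC47D stood at -2.07 and -1.46 in adults and at -4.11 and -3.54 in larvae, all called. By contrast, tmod, which caps thin filaments, was higher by 1.44 in adults (SE 0.13, adjusted p = 7.58e-11).

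The hybrid columns are labelled by the allele of one species, and how reads were assigned to an allele, or counted where they match both, is not given in the sources used here. The D. sechellia allele columns of adult hybrids totalled 766311 to 1034077 FPKM and the D. simulans columns 122009 to 192420 FPKM. As deposited, the D. sechellia share of Mhc was 82.3% to 98.2% over the 12 adult hybrid libraries (median 92.0%), that of TpnC4 46.7% to 79.5% (median 67.7%) and that of Mlc2 42.2% to 70.0% (median 57.8%). Both alleles of these 3 genes were thus measured in every adult hybrid, but the D. simulans column of Mhc was low, at 0.214 to 5.803 FPKM.

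TpnC41C and fln were close to one-sided, in opposite directions. The D. sechellia column listed TpnC41C at 0 in 11 of 12 adult hybrids and at 49.84 FPKM in OO2, whereas the D. simulans column ran from 318 to 662.1 FPKM. As a parent, D. sechellia had the higher TpnC41C level, at 3130 FPKM or more. For fln the D. simulans column was listed at 0 in 6 of 12 libraries (SS1, SS2, OS1, OS2, OS3 and OO3) and stood at 36.04 in SS3, 11.76 in SO1, 17.32 in SO2, 31.61 in SO3, 23.19 in OO1 and 26.49 FPKM in OO2. The D. sechellia column of fln ran from 521.8 to 1895 FPKM, above every D. simulans value.

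**Figure D3:**
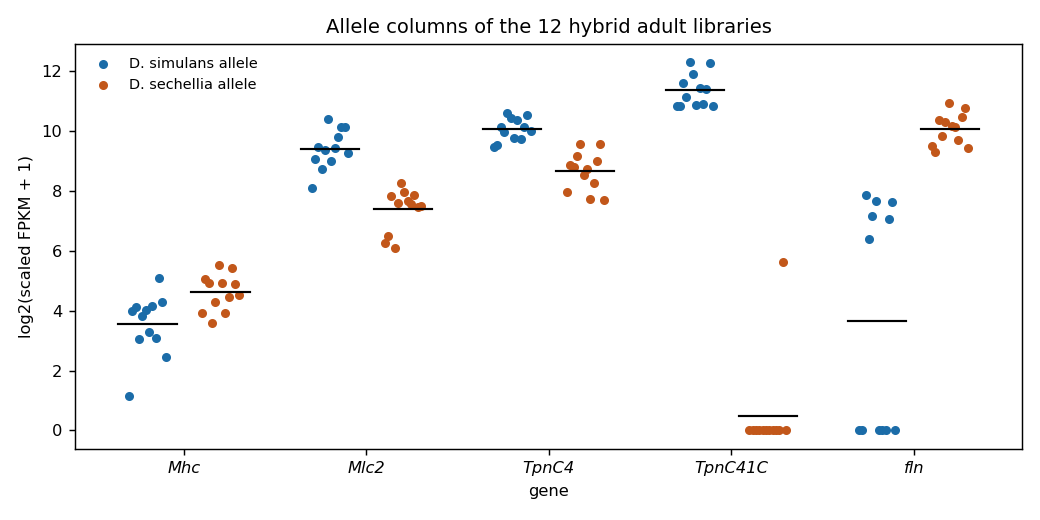
Allele columns of the 12 adult hybrid libraries after each was scaled to a total of 1000000, as log2(scaled FPKM + 1), with 1 point per library and the mean as a black line. The D. sechellia allele of TpnC41C is at 0 in 11 libraries and the D. simulans allele of fln in 6, and the alleles of Mhc, Mlc2 and TpnC4 were measured in all 12.

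With each column scaled to the same total, all 5 genes had a called allelic difference in adult hybrids, where 51.9% of the 6183 genes tested were called. As log2 of the D. sechellia minus the D. simulans allele it was -10.89 for TpnC41C (SE 0.42, adjusted p = 1.73e-14), -2.03 for Mlc2 (SE 0.23, adjusted p = 3.59e-07), -1.4 for TpnC4 (SE 0.19, adjusted p = 2.59e-06), 1.07 for Mhc (SE 0.34, adjusted p = 0.0136) and 6.43 for fln (SE 0.78, adjusted p = 7.37e-07). The values of TpnC41C and fln depend on the pseudocount, since an allele was listed at 0. That of Mhc rests on a D. simulans column with a median of 2.059 FPKM before scaling. When both columns of a library shared a total instead, Mlc2 stood at 0.44 (adjusted p = 0.0962) and TpnC4 at 1.07 (adjusted p = 1.88e-05), so the direction for these 2 genes turned with the scaling, and Mhc stood at 3.21, TpnC41C at -9.11 and fln at 8.13.

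For a comparison with the parents, every parental column was scaled to the same total as the allele columns. On this scale the log2 ratio of adult D. sechellia to D. simulans was 1.41 for TpnC41C, 0.97 for Mlc2, 0.97 for TpnC4, 0.28 for fln and -0.47 for Mhc, below the values on the deposited scale given above. This parental ratio differed from the allelic ratio of the hybrids for all 5 genes in adults, where 56.8% of genes were called. The parental minus the allelic log2 ratio was 12.3 for TpnC41C (SE 0.49, adjusted p = 8.5e-22), 3 for Mlc2 (SE 0.32, adjusted p = 7.3e-10), 2.37 for TpnC4 (SE 0.25, adjusted p = 7.78e-10), -1.54 for Mhc (SE 0.44, adjusted p = 0.00335) and -6.15 for fln (SE 0.87, adjusted p = 2.72e-07). With a shared total the values of TpnC41C, Mhc and fln were still called, at 10.52, -3.68 and -7.84, whereas Mlc2 stood at 0.53 (adjusted p = 0.131) and TpnC4 at -0.09 (adjusted p = 0.749).

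In hybrid larvae only Mlc2 was high enough for an allelic test, and it did not pass at -1.06 (SE 0.68, adjusted p = 0.205), where 50.9% of genes were called. Parental and allelic ratios could be compared for 4 members, with 43.7% of genes called. Mhc stood at -2.35 (SE 0.69, adjusted p = 0.00581), but it entered this comparison through the parental columns, where its ratio on the common total was -2.26. Its allele columns were listed at 0 in 7 of 12 cases for D. simulans and 6 of 12 for D. sechellia and reached at most 3.439 FPKM, too low for an allelic test, so that the call rests on a parental ratio set against allele values near the pseudocount. Mlc2 stood at 1.3 (adjusted p = 0.234), TpnC4 at 0.12 (adjusted p = 0.782) and TpnC41C at 0.3 (adjusted p = 0.618).

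Among the 30 other muscle genes, 16 had a lower and 2 a higher D. sechellia allele in adult hybrids, with a median of -0.53 against -0.11 over all genes, of which 29.7% were called lower and 22.2% higher. With a shared total the direction turned, to 3 lower and 23 higher of 29 tested and a median of 1.77 against 1.99 over all genes. The troponin T gene up leaned in the direction of TpnC41C, at -7.9 (SE 0.21, adjusted p = 3.46e-17), and Ald stood at -4.18 (SE 0.23, adjusted p = 5.72e-12). Cofilin, encoded by tsr, and zip, the cytoplasmic myosin heavy chain gene, stood at -8.93 and -2.96 among the cytoplasmic genes, and profilin, encoded by chic, at 3.09.

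No effect of octanoic acid in either generation was called in any genotype for the 5 genes in adults or for the 4 that could be tested in larvae, where fln was too low. Of 99 tests of a member over 22 media contrasts with limma, 0 passed, and 5 had an unadjusted p under 0.05. In adults the current medium changed 0% of the 6420 genes in D. simulans, 0.0156% in D. sechellia and 6.73% in hybrids, and the previous medium 0%, 0.0779% and 1.7%. The interaction of the current and the previous medium was called for 0%, 0.0623% and 1.48%, and a species difference in the effect for 0.0156% (current) and 0.0312% (previous). In 7 of the 22 contrasts no gene at all was called, with 8 to 553 genes at an unadjusted p under 0.05.

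**Figure D4:**
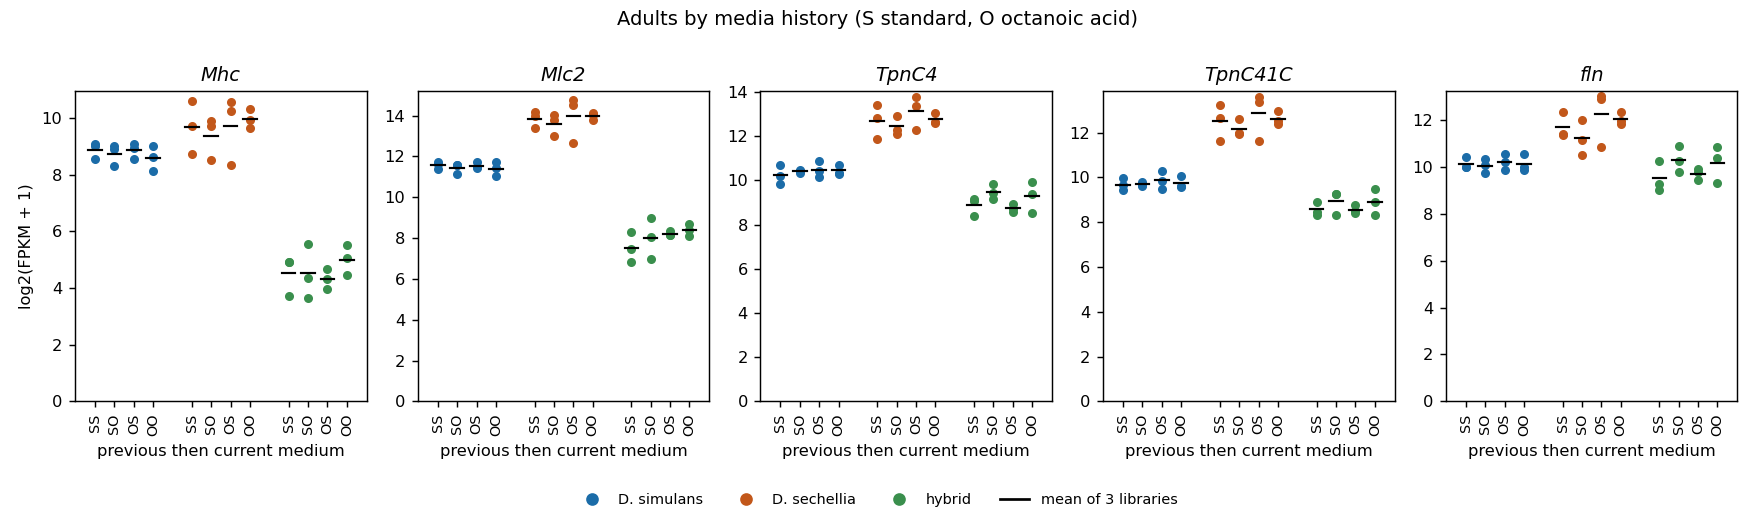
Adult levels by media history, as log2(FPKM + 1), with 3 libraries per group coloured by genotype and their mean as a black line. All histories overlap within D. simulans, and the distance between D. simulans, D. sechellia and hybrids is larger than that between histories for Mlc2, with means of 2914, 15913 and 283 FPKM.

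Of the adult effects of the medium in 1 generation, the largest were those of fln and TpnC4. After octanoic acid in the previous generation, fln in D. sechellia stood at 1849, 7625 and 8299 FPKM (OS) and 3604, 4016 and 5190 FPKM (OO), against 2633, 2673 and 5133 FPKM (SS) and 1439, 2299 and 4056 FPKM (SO). The groups overlapped, and the difference was 0.7 (SE 0.32, unadjusted p = 0.0399, adjusted p = 1). In hybrids on octanoic acid, TpnC4 was at 576.4, 684.8 and 909.2 FPKM (SO) and 371.7, 659.7 and 981.4 FPKM (OO), against 332.1, 528.8 and 568.2 FPKM (SS) and 383.6, 413.1 and 493.6 FPKM (OS). These overlapped too, with a difference of 0.58 (SE 0.26, unadjusted p = 0.033, adjusted p = 0.165), and fln in the same contrast stood at 0.63 (SE 0.32, adjusted p = 0.228). Among interactions of both media, the widest adult value was that of Mhc in hybrids, at 0.69 (SE 0.73, adjusted p = 0.774).

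The 5 genes in D. simulans adults had differences for the current medium from -0.2 (Mhc) to 0.08 (TpnC4) and for the previous medium from -0.09 (Mhc) to 0.13 (TpnC4 and TpnC41C), each with an SE of 0.26 to 0.36.

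Among larval effects of the medium in 1 generation, the widest were those of the myosin genes in D. simulans by the medium of the previous generation. Mhc stood at 32.83, 65.1 and 279.7 FPKM (SS) and 12.85, 19.66 and 112.3 FPKM (SO) with standard parents, and at 141.8, 145.4 and 220.1 FPKM (OS) and 125.8, 232.9 and 495.2 FPKM (OO) with octanoic acid parents. Mlc2 stood at 614.9, 1199 and 3455 FPKM (SS) and 213, 386.4 and 1322 FPKM (SO), against 2084, 2645 and 4049 FPKM (OS) and 2596, 4743 and 6153 FPKM (OO). One SS library (SS2) lay inside the range of the octanoic acid groups for both genes, and the other 5 lay below it. The differences were 2.09 for Mlc2 (SE 0.73, unadjusted p = 0.00753, adjusted p = 0.189) and 1.95 for Mhc (SE 0.78, unadjusted p = 0.0183, adjusted p = 0.253), neither of which passed, where 0.293% of genes were called. The interaction of both media in these larvae was 2.1 for Mlc2 (SE 1.45, adjusted p = 1) and 1.98 for Mhc (SE 1.56, adjusted p = 1).

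The same contrast in larval D. sechellia gave 0.03 for Mlc2 and 0.07 for Mhc, where 0.014% of genes were called, and hybrid larvae stood at 0.95 and -0.21, with 0.67% called. The difference of the effect between the species was -2.06 for Mlc2 (SE 1.03, adjusted p = 0.636) and -1.89 for Mhc (SE 1.1, adjusted p = 0.688), so it was not shown to differ. The current medium was called for 0.014% of genes in D. simulans larvae, 0% in D. sechellia and 0.949% in hybrids. The interaction of both media was called for 0.014%, 0% and 0.781% in the same order, and a species difference for 0% for either generation. TpnC41C in D. sechellia larvae, at -0.85 for the current medium (SE 0.39, unadjusted p = 0.0374, adjusted p = 1), rests on levels of at most 2.699 FPKM.

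**Figure D5:**
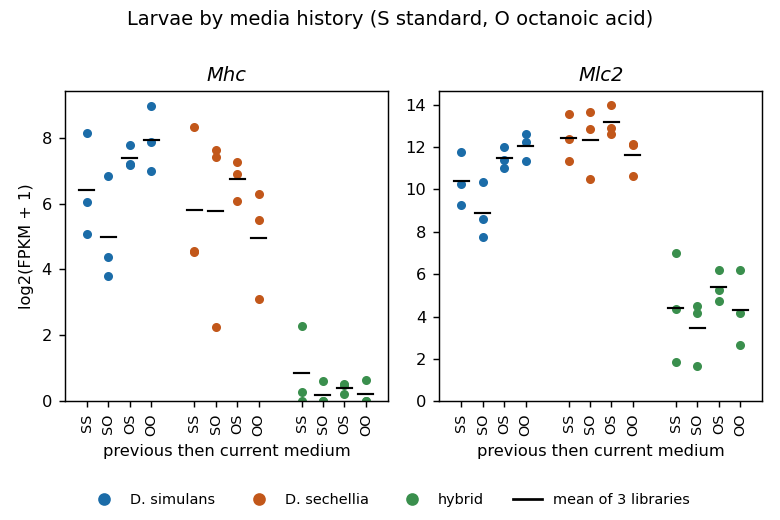
Larval Mhc and Mlc2 by media history, as log2(FPKM + 1), with 3 libraries per group coloured by genotype and their mean as a black line. In D. simulans, 5 of the 6 libraries with standard parents lie below all 6 with octanoic acid parents. From lowest to highest, Mhc in D. simulans spans 38.5-fold over all 12 libraries. Within groups it spans 8.52-fold (SS), 8.74-fold (SO), 1.55-fold (OS) and 3.94-fold (OO).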

How the data were processed

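The deposited table holds FPKM for 7836 genes in 96 columns, 48 of them parental libraries and 48 allele columns that belong to 24 hybrid libraries. The authors made these FPKM with FastQC, Bowtie2 and Cufflinks, per the submitters' processing notes. The sources used here do not give versions, genome build, annotation or allele assignment, and depth is unknown. No table name matched the reference gene table, so no coordinates or sequences are given.

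The members and gene lists were chosen with earlier results of these data known. Tests used limma 3.58.1 (R 4.3.3) and log2(FPKM + 1) (variance trend, 1 mean per group, at least 1 FPKM in 3 libraries), adjusted over all genes of a contrast by Benjamini-Hochberg, with a call at an adjusted p under 0.05. Stage was fitted over 48 parental or 24 hybrid libraries and the other contrasts over the 36 libraries of a stage. For allelic ratios, and for the parental ratios compared with them, every column was scaled to 1000000 and fitted with the library as a block. Labels call the replicates biological, and no 2 libraries held identical values. From each list, up to 3 called genes of smallest p are named, and for likeness the nearest genes by Pearson r. The pipeline was also run on simulated data with known changes. These held no scale difference between genotypes, and no result given here rests on them. Alternatives were median-ratio rescaling, no filter, a pseudocount of 0.1, no trend, a replicate block, only the libraries compared, a shared allele total, no library block, and each library left out. Summaries came from pandas 2.3.3 and numpy 2.4.6 under Python 3.11.15, and plots from matplotlib 3.10.9.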

Additional observations from a re-analysis of the deposited data

Results flagged for a closer look

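The stage difference was not the same in the 2 species for 4 of the 5 genes, by the test of the interaction itself. That interaction was called for 52.7% of all genes tested. On the log2(FPKM + 1) scale, adults minus larvae was larger in D. sechellia than in D. simulans by 2.59 for TpnC41C, 2.01 for TpnC4, 1.84 for fln and 1.77 for Mhc. The TpnC4 call did not hold with a pseudocount of 0.1, and the Mhc call was lost without any 1 of 10 libraries. For TpnC4, TpnC41C and fln the interaction mostly restated the species difference of adults, since larvae of both species were at or near 0.

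The parental species ratio also differed from the allelic ratio of hybrids, by the test of that difference. It was called for 56.8% of all genes tested in adults and 43.7% in larvae. In adults the parental minus the allelic log2 ratio was 12.3 for TpnC41C, 3 for Mlc2, 2.37 for TpnC4, -1.54 for Mhc and -6.15 for fln. In larvae it was -2.35 for Mhc, whose allele columns were too low for an allelic test and which entered through the parental columns. Those of Mlc2 and TpnC4 in adults did not hold when both allele columns shared a total.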

How the results depend on the processing

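Over the 35 contrasts, the count of called members was within 1.5 times that reported under every alternative, leaving out each library included, with 2 exceptions. With a pseudocount of 0.1 the species difference in larvae was called for 2 members instead of 1, and with 1 total for both allele columns the parental and allelic ratios of adults differed for 3 members instead of 5. The count does not track which members were called or in which direction. For species in larvae, rescaling replaced the call of Mlc2 by a call of Mhc in the opposite direction, which left the count unchanged. The adult allelic call of TpnC4 reversed with a shared total and still counts as a call. Reversed values were TpnC41C for species in larvae after rescaling (-0.02), Mlc2 (0.44) and TpnC4 (1.07) for the adult allelic ratio with a shared total, and TpnC4 for parental minus allelic ratio in adults with a shared total (-0.09). For TpnC4 the parental minus allelic ratio in larvae ran from -0.03 to 0.18 as libraries were left out, below 0 without D. simulans OO2 or OO3. The causes were not tested. TpnC4 in hybrid larvae could not be tested without D. simulans OO1, D. sechellia OS1 or D. sechellia OO2, and TpnC41C was called without hybrid SS3 or SO2. The replicate numbers were not shown to pair libraries: libraries of the same number had a mean correlation of deviations of 0.009 in adults and 0.036 in larvae, and 14 and 19 of 36 correlated best with their own number. A replicate block changed no call of a member. With the replicate block 5 members were called for stage and 5 for species in adults.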
